A study of Mus musculus with 54 samples.

Results

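Fat absorption in the small intestine is described here through 10 genes chosen by name for their known roles: Cd36, Fabp1, Fabp2, Mogat2, Dgat1, Mttp, Apob, Apoa1, Apoa4 and Apoc3. All 10 are among the 48440 entries of the mRNA table and among the 27998 genes of the single-cell matrices, and all 10 were detected in each of the 4 single-cell samples. The series concerns miR-375, a microRNA, and by its title the makeup, proliferation and regenerative capacity of intestinal crypt cells. For mRNA, crypt cells of the small intestine were sorted as Sox9-EGFP Low from C57BL/6J mice, which carry a green fluorescent reporter of the gene Sox9. They form 4 groups of 4 libraries: chow-fed mice, mice on a high fat diet, conventionalized mice and germ-free mice. Germ-free mice have no microbiota, and conventionalized mice started so and were then colonized. All 16 libraries carry the reporter, and ages, the composition of the diets and the time on them are not given in the labels. The single-cell data came from dissociated intestinal cells of 12-month-old mice, either wild type (WT) or knocked out for miR-375 (KO) of a strain written C57BL6/2J in the labels, with 2 samples of each genotype numbered as sets 1 and 2. The number of mice pooled in a sample and their diet are not given, and Mir375 is no row of the matrices, so the deletion could not be checked there.

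Dietary fat is split in the gut lumen into fatty acids and monoacylglycerols, which enterocytes, the absorptive cells lining the villi, take up and join again into triglyceride in the endoplasmic reticulum. The triglyceride is loaded onto apolipoprotein B, and the resulting chylomicrons are secreted to the lymph with further apolipoproteins on their surface. Crypts hold the stem, dividing and Paneth cells from which and beside which enterocytes arise, so these genes are known mainly as genes of the differentiated cell.

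By role, Cd36 encodes a fatty acid translocase of the cell surface. Fabp1 and Fabp2 encode the liver and intestinal fatty acid binding proteins of the cytosol. Mogat2 encodes the acyltransferase that makes diacylglycerol from monoacylglycerol, and Dgat1 the one that adds the last fatty acid of a triglyceride. Mttp encodes the microsomal triglyceride transfer protein, which lipidates the apolipoprotein B encoded by Apob. Apoa1 encodes the main protein of high density lipoprotein, Apoa4 a chylomicron apolipoprotein that is made mostly in the gut, and Apoc3 an inhibitor of the clearance of triglyceride-rich particles.

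Apoa1, Apoc3 and Apoa4 are neighbours on mouse chromosome 9. In the GENCODE annotation of GRCm38, Apoa1 lies at chr9:46228580-46230466 on the plus strand, Apoc3 at chr9:46232933-46235636 on the minus strand and Apoa4 at chr9:46240696-46243459 on the plus strand, 14.9 kb from end to end. The others are spread over chromosomes 3 (Mttp and Fabp2), 5 (Cd36), 6 (Fabp1), 7 (Mogat2), 12 (Apob) and 15 (Dgat1).

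RefSeq promoters on GRCm38.p6 were found for 7 of the 10 genes, and Apoc3, Dgat1 and Mogat2 have no entry. The 250 bases before the RefSeq start were searched on both strands for TATAAA (the TATA box), CAAAGTNCA (a nuclear receptor motif of the HNF4 type, with 1 free letter) and AGGTCA (the core motif of nuclear receptors), and distances below are from that start. The RefSeq start is also the GENCODE start for Fabp2 but lies inside the GENCODE gene by 52 bases for Fabp1 and by 148 bases for Apoa4, so for these genes only the bases before the GENCODE start are printed. The genes shown are Fabp1 and Fabp2, with the largest diet differences below, and Apoa4, with the largest knockout difference. Capitals mark the matches, and no matches overlap each other.
Fabp1, chr6:71199629-71199826, plus strand: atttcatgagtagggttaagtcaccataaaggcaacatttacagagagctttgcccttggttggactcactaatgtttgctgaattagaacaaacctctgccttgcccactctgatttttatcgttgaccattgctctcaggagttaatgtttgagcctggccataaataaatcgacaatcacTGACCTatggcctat
Fabp2, chr3:122894822-122895071, plus strand: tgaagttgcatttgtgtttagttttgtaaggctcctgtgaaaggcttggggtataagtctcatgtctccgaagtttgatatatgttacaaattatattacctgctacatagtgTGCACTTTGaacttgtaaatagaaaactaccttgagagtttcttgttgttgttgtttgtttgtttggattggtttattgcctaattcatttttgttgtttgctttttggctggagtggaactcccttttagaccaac
Apoa4, chr9:46240594-46240695, plus strand: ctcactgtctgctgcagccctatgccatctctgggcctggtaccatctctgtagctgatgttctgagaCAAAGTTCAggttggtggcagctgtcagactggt
Fabp1 held AGGTCA, on the minus strand, 67 bases before its RefSeq start. Between its GENCODE and RefSeq starts, in bases not printed, it held TATAAA at 30 and AGGTCA at 9 bases before the RefSeq start. Fabp2 held CAAAGTNCA 137 bases before its start on the minus strand, and Apoa4 held it 182 bases before its RefSeq start on the plus strand. Among the others, Apob held TATAAA at 60 bases and Cd36 AGGTCA at 228 bases before the RefSeq start, while Apoa1 and Mttp held none of them. Of all 32851 promoters of this length, 12.4% held TATAAA, 1.19% CAAAGTNCA and 14.0% AGGTCA. The letters AGATAA, as bound by factors of the GATA family, were in 9.99% of all promoters and in none of the 7. These matches are letters in a window and no evidence of binding.

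The mRNA values are normalized counts, which are comparable between libraries for 1 gene but not between genes. Library totals ran from 10680267 to 19117886 normalized counts. The sorted cells held crypt transcripts as their label implies, with all 10 stem cell markers on average above 10 normalized counts, but all 20 enterocyte markers were above it as well. In such bulk samples fewer cells of a type and less RNA per cell cannot be told apart. The column names of the table carry numbers, 180 to 183 for replicates 1 and 2 and 241 to 244 for replicates 3 and 4 of the chow and high fat groups, and nothing in the labels says what the ranges stand for. In the small RNA table of the series, the column with the number of chow replicate 3 is named as high fat and that of high fat replicate 3 as chow, and the labels were followed here. Nothing says whether the libraries of a group come from separate cultures or litters, so p-values measure the spread between these libraries.

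**Figure D1:**
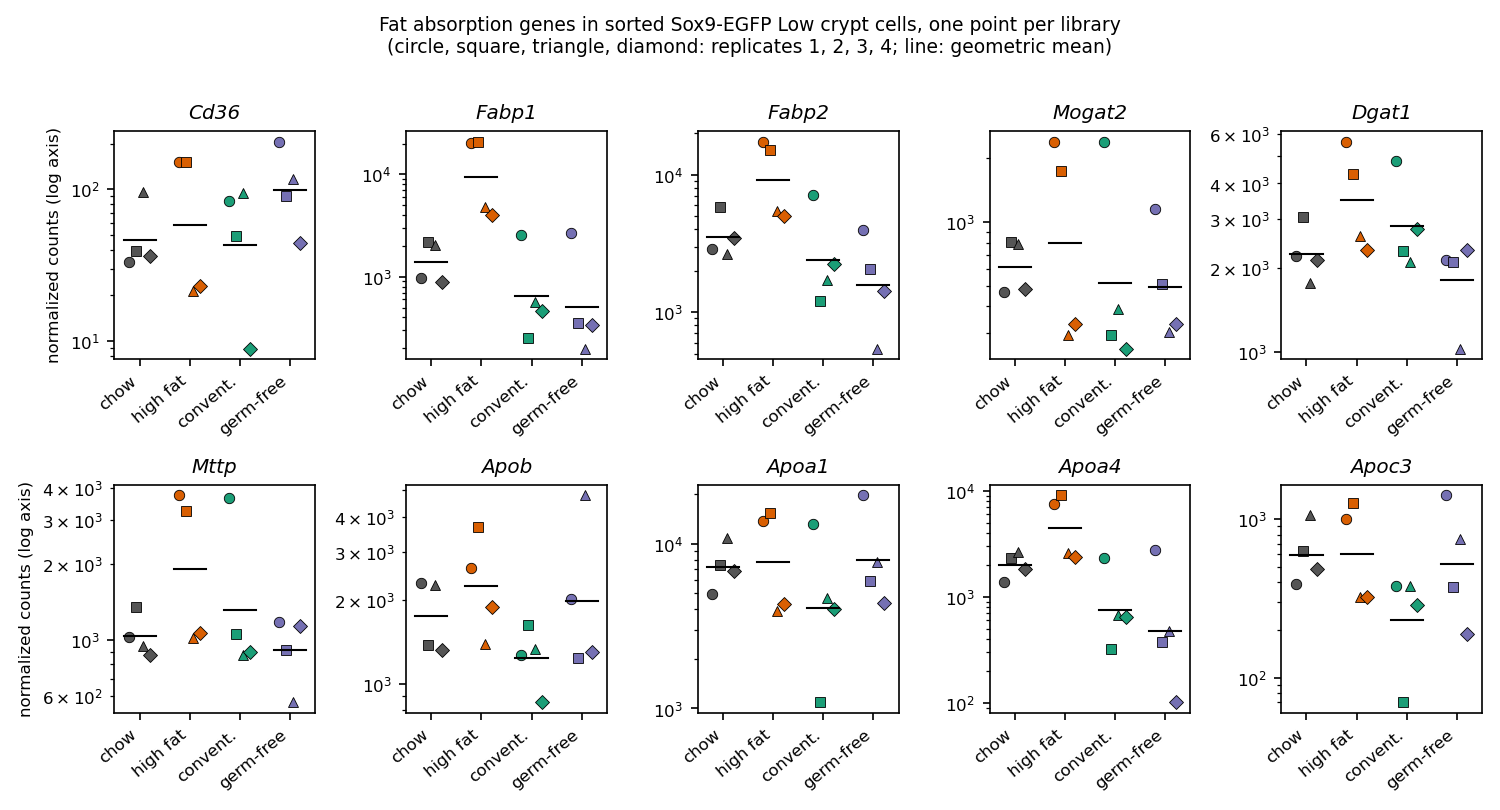
Normalized counts (log axis) of the 10 genes in each of the 16 mRNA libraries, by group, with a line at the geometric mean of each group and a symbol for each replicate number. High fat replicates 1 and 2 lie above every chow library for all 10 genes except Apoc3, where only replicate 2 does, and Fabp1 is the gene whose 4 high fat libraries all lie above the 4 chow libraries.

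All 10 genes were on average higher in crypt cells of mice on the high fat diet than in those of chow-fed mice, but none passed an adjusted p of 0.05. Of all 16421 genes tested, 135 (0.822%) passed in limma. At an unadjusted p under 0.05, 3 of the 10 (Fabp1, Fabp2 and Apoa4) were higher, with 14.9% of all genes tested. The median log2 difference of the 10 genes was 0.50, against 0.05 for all genes tested, of which 8929 were positive. The 2 fatty acid binding proteins and Apoa4 had the largest differences. Without the 2 libraries whose diet differs between column names, all 10 differences stayed positive, from 0.59 (Apoc3) to 3.27 (Fabp1), and none passed.

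Cd36 measured 33.3, 39.0, 96.3 and 36.1 normalized counts in chow replicates 1 to 4 and 151, 151, 21.3 and 22.9 in the high fat replicates. Its 2 highest and its 2 lowest values among these 8 libraries were thus all in the high fat group, and the log2 difference was 0.33 ± 0.70 (SE, adjusted p = 0.816, limma).

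Fabp1 measured 977, 2162, 2053 and 885 normalized counts in the chow libraries. On the high fat diet it measured 20295, 20869, 4781 and 3995. The lowest high fat value lay above the highest chow value, a separation that no other member showed and that 8.81% of all genes tested showed in this direction. The means were 12485 ± 9358 and 1519 ± 682 (SD, n = 4), and the log2 difference was 2.76 ± 0.58 (SE, 95% interval 1.48 to 4.04). The adjusted p was 0.0601 in limma, and p was 0.0286 by exact permutation (two-sided), which is the lowest value 70 relabelings can reach. Of 20 other limma fits, 6 carried Fabp1 over the threshold, and its adjusted p ran up to 0.164 over the 20. It was 0.0157 with the column numbers as blocks, 0.0259 with library weights and 0.0280 without chow replicate 2. In these fits the calls over all genes also rose, from 135 to 1535, 1845 and 2590.

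Fabp2 measured 2866, 5805, 2629 and 3479 in the chow libraries. Its high fat values were 17418, 15026, 5469.9 and 5007. Only chow replicate 2 reached into the range of the high fat group. The log2 difference was 1.39 ± 0.43 (SE, 95% interval 0.43 to 2.35, adjusted p = 0.0971, limma). Fabp2 passed in 3 of 20 other limma fits, and its adjusted p ran up to 0.318 over the 20. It was 0.0269 with the column numbers as blocks and 0.0389 without chow replicate 2.

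Of the enzymes of triglyceride synthesis, Mogat2 measured 466, 805, 788 and 482 in chow libraries and 2382, 1749, 293 and 330.1 on the high fat diet. High fat replicates 1 and 2 were above and replicates 3 and 4 below every chow library. Dgat1 measured 2209, 3033, 1769 and 2138 on chow and 5639.6, 4339, 2594 and 2308 on the high fat diet, with a log2 difference of 0.63 ± 0.29 (SE, adjusted p = 0.189, limma).

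Mttp measured 1029, 1348, 947 and 874 on chow and 3734, 3252, 1017 and 1071 on the high fat diet (log2 difference 0.88 ± 0.42, SE, adjusted p = 0.207, limma). Again replicates 1 and 2 stood far above the chow range and replicates 3 and 4 inside it. Apob measured 2305, 1377, 2266 and 1319 on chow and 2623, 3691, 1391 and 1895 on the high fat diet. Its groups overlapped, with a log2 difference of 0.36 ± 0.31 (SE, adjusted p = 0.499, limma).

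Apoa4 measured 1363, 2334, 2663 and 1824 in the chow libraries. On the high fat diet it measured 7427, 9005, 2563 and 2375. All 4 high fat values exceeded those of 3 chow libraries, and chow replicate 3 lay above 2 of them. The log2 difference was 1.18 ± 0.43 (SE, 95% interval 0.21 to 2.15, adjusted p = 0.124, limma).

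The neighbours of Apoa4 on chromosome 9 had smaller differences. Apoa1 measured 4927, 7477, 10885 and 6803 on chow and 13721, 15335, 3927 and 4299 on the high fat diet, a log2 difference of 0.10 ± 0.46 (SE, adjusted p = 0.929, limma). Apoc3 measured 391, 631, 1064 and 487 on chow and 1002, 1263, 323 and 324 on the high fat diet, a log2 difference of 0.01 ± 0.48 (SE, adjusted p = 0.989, limma). For both genes high fat replicates 3 and 4 lay below every chow library.

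In the high fat group the replicates with column numbers in the 180s thus lay above those in the 240s for all 10 genes. The diets were compared within each range in a joint limma fit chosen after these values were seen. The p-values below come from the same values and so do not test the split. The 240s also hold chow replicate 3 and high fat replicate 3, whose diets differ between column names. In the 180s all 10 genes were higher on the high fat diet, from 0.80 (Apob) to 3.82 (Fabp1) on the log2 scale. There 5 genes passed, among 0.652% of all genes that passed in this direction: Fabp1 and Mttp (adjusted p = 0.0179 for each), Apoa4 (0.0216), Fabp2 (0.0287) and Mogat2 (0.0427). In the 240s Fabp1 was higher by 1.70 and passed (adjusted p = 0.0456, with 5.35% of all genes passing upward), and Apoa1 fell by 1.07 (adjusted p = 0.0453, with 4.76% passing downward). Apob, Mogat2, Apoc3 and Cd36 had log2 differences of -0.09, -0.98, -1.15 and -1.38 there and did not pass. The test of the difference between the ranges gave adjusted p from 0.151 to 0.476 over the 10 genes and called 0 of 16421 genes (0%). At an unadjusted p under 0.05 it picked 8 of the 10 and 12% of all genes. Fabp1 was the member that passed within both ranges.

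Markers of other cells varied with these values. The summed normalized counts of the 10 genes were 74394 and 74680 in high fat replicates 1 and 2, 22382 and 21627 in replicates 3 and 4, and 16568 to 25161 on chow. The summed enterocyte markers were 42031, 38866, 22854 and 24573 in the high fat libraries and 29908, 27984, 50117 and 33024 in the chow libraries. High fat replicates 1 and 2 thus lay above every chow library except replicate 3, whose diet differs between column names. Summed enteroendocrine markers were lower on the high fat diet (70453 to 211129 against 221973 to 963043), with 0 of 13 passing the adjusted threshold and 11 at an unadjusted p under 0.05 (26.7% of all genes). Of the tuft cell markers, 6 of 11 fell past the adjusted threshold (0.822% of all genes). The part of these cells in the differences above was not tested.

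Around the 10 genes, the pathway lists held few called genes. Of the genes of fat uptake and fatty acid activation, 8 of 12 tested were higher on the high fat diet, with 9 of 15 for re-esterification and lipid droplets, 10 of 16 for lipoprotein assembly and further apolipoproteins, and 13 of 14 for transcriptional regulators. None of these passed the limma threshold, and 3, 5, 3 and 5 of them were at an unadjusted p under 0.05, as were 26.7% of all genes tested. Of the genes that mark position along the villus, Slc28a2, a nucleoside transporter of the villus tip, fell by 1.44 on the log2 scale (adjusted p = 0.0371, limma).

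**Figure D2:**
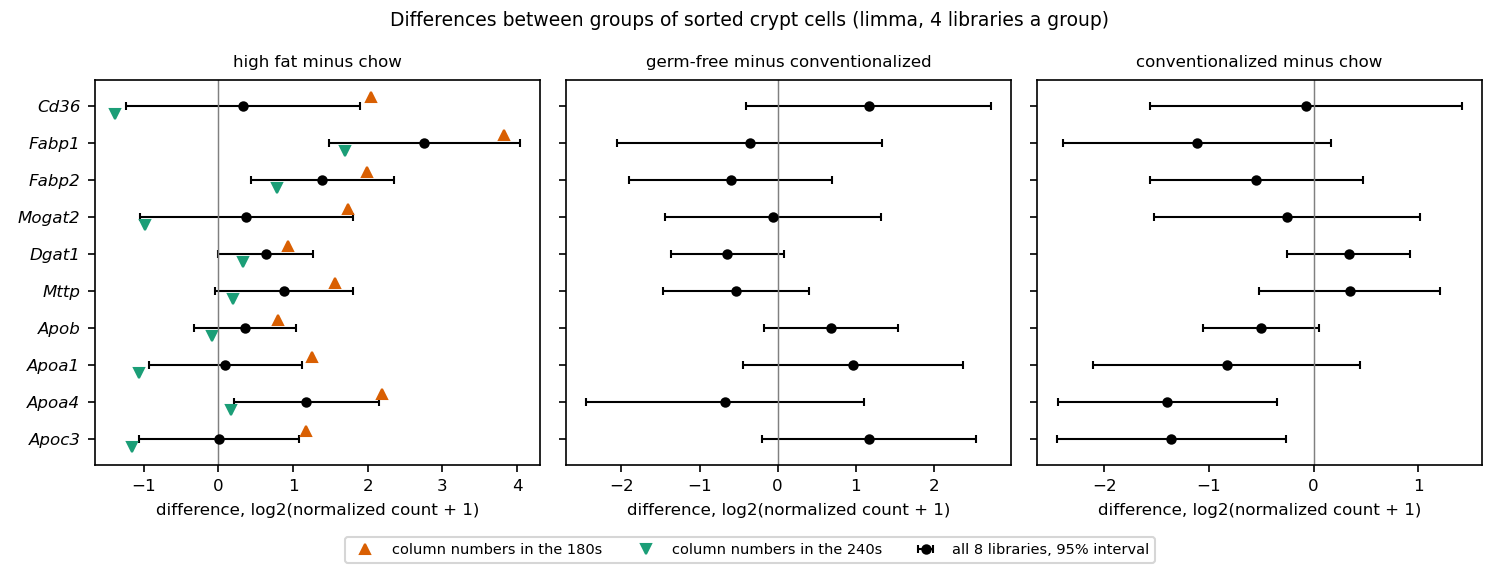
Differences of the mean log2(normalized count + 1) between groups of 4 libraries, with 95% intervals from limma (black), and, for the diet, the differences within the column numbers of the 180s (upward triangles) and 240s (downward triangles). Fabp1 lies to the right of 0 in both ranges, and Cd36, Mogat2, Apoa1 and Apoc3 lie on opposite sides of 0 in the 2 ranges.

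Germ-free and conventionalized mice differ by their microbiota. None of the 10 genes passed between them, while 453 of 20214 genes tested (2.24%) did in limma. At an unadjusted p under 0.05 the counts were 0 of the 10 and 20.1% of all genes. The groups overlapped for every member, and were apart for 12.5% of all genes. The median log2 difference, germ-free minus conventionalized, was -0.21 for the 10 genes and 0.11 for all genes tested. The apolipoproteins Apoc3 (1.17, adjusted p = 0.304), Apoa1 (0.97, adjusted p = 0.385) and Apob (0.68, adjusted p = 0.328) and the translocase Cd36 (1.16, adjusted p = 0.356) had positive differences in limma. The other 6 had negative ones, from -0.06 (Mogat2) to -0.67 (Apoa4).

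Replicate 1 of each group carried much of the spread. Fabp1 measured 2583, 254, 572 and 463 in conventionalized replicates 1 to 4 and 2684, 354, 199 and 339 in germ-free replicates 1 to 4. Apoa4 measured 2339, 320.4, 669 and 637 in the conventionalized and 2738, 370.1, 479 and 101 in the germ-free libraries. For both genes replicate 1 was the highest library of each group.

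Fabp2 had the same library on top, with 7144, 1214, 1712 and 2245 in the conventionalized and 3933, 2047, 543 and 1434 in the germ-free libraries. Mogat2 measured 2393, 295, 391 and 253 in the conventionalized and 1148, 511, 304 and 331 in the germ-free libraries. In Mttp it was conventionalized replicate 1 that stood out, with 3643 against 1052, 876 and 895, while the germ-free libraries measured 1181, 911, 566 and 1134.

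Dgat1 measured 4799, 2305, 2103 and 2753 in the conventionalized and 2132, 2095, 1031 and 2322 in the germ-free libraries. Its log2 difference was -0.65 ± 0.33 (SE, adjusted p = 0.289, limma), and only germ-free replicate 3 was far below the other libraries. Apob measured 1272, 1626, 1331 and 855 in the conventionalized and 2029, 1241, 4786 and 1306 in the germ-free libraries, where replicate 3 was the highest of all 16 libraries.

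Apoa1 measured 13276, 1088, 4684 and 4036 in the conventionalized and 19658, 5972, 7749.8 and 4386 in the germ-free libraries. Apoc3 measured 379, 70.1, 379 and 288 in the conventionalized and 1409.6, 375, 748 and 190.0 in the germ-free libraries, and Cd36 83.3, 49.6, 95.3 and 8.9 against 207, 90.3, 117 and 44.6. In all 3 genes the highest germ-free library lay above every conventionalized library, while the lowest lay inside the conventionalized range.

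In the pathway lists, 2 lipid genes rose in germ-free mice. Scarb1, which encodes a cholesterol and lipoprotein receptor of the brush border, measured 328, 418, 622 and 659 in the conventionalized and 2123, 969, 2543 and 1619 in the germ-free libraries, without overlap. Its log2 difference was 1.81 ± 0.33 (SE, adjusted p = 0.0185, limma). Apom, which encodes an apolipoprotein that carries sphingosine 1-phosphate, measured 48.7, 55.5, 88.4 and 98.3 in the conventionalized and 359, 306, 309.9 and 145 in the germ-free libraries, a log2 difference of 1.91 ± 0.40 (SE, adjusted p = 0.0299, limma). The adjusted p of Scarb1 was 0.0720, 0.0610 and 0.0642 without germ-free replicate 1, conventionalized replicate 1 and conventionalized replicate 2 in turn, and that of Apom 0.116, 0.0891 and 0.0956, with 0.0516 and 0.0580 for Apom without germ-free replicates 2 and 3. Without germ-free replicate 1 and conventionalized replicate 1 together no gene passed (2413 at an unadjusted p under 0.05). Of the villus position genes, Nt5e, an ectonucleotidase of the tip, rose by 2.93, while Slc28a2 fell by 2.21 and the antimicrobial lectins Reg3b and Reg3g of the villus base fell by 7.08 and 4.46 on the log2 scale (adjusted p = 0.0129 for each, limma). Of the 6 tip genes, 2 rose and 1 fell past the adjusted threshold, and the other that rose is not among those named by rule. Beside this, 4 of 20 enterocyte and 5 of 13 enteroendocrine markers rose past the adjusted threshold in germ-free mice, and 3 of 12 cycling markers fell past it. Of all 20214 genes tested, 394 rose and 59 fell past it. The enterocyte markers went both ways, with 10 of 20 positive, a median log2 difference of -0.01 and a range from -2.18 to 2.53. The part of these cells in the lipid values was not tested.

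Conventionalized and chow-fed mice both hold a microbiota, and this comparison shares its libraries with the other comparisons. Of 17941 genes tested, 17 (0.0948%) passed in limma and none of them was a member. At an unadjusted p under 0.05, 2 of the 10, Apoa4 and Apoc3, were lower, with 7.57% of all genes tested. The median log2 difference, conventionalized minus chow, was -0.52 for the 10 genes and 0.04 for all genes tested. The differences of Apoa4 (-1.40 ± 0.48, SE, adjusted p = 0.319, limma) and Apoc3 (-1.36 ± 0.50, SE, adjusted p = 0.353, limma) were the most negative. Apoc3 was lower in every conventionalized library than in any chow library, as were 4.38% of all genes, with p = 0.0286 by exact permutation (two-sided). Apoa4 overlapped through conventionalized replicate 1. Fabp1 (-1.11), Apoa1 (-0.83), Fabp2 (-0.55), Apob (-0.50), Mogat2 (-0.26) and Cd36 (-0.07) were negative too, and Dgat1 (0.33) and Mttp (0.35) positive.

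Across the 16 mRNA libraries the 10 genes varied together to unequal degrees. The correlation (Pearson, log2 scale) of a gene with the mean of the other 9 was highest for Mogat2 (0.902), followed by Fabp1 (0.851), and lowest for Apob (0.346). Of 10724 other genes with a mean of at least 100 normalized counts, those most like the mean of the 10 included Alpi (0.944), which encodes the alkaline phosphatase of the enterocyte brush border, Glod5 (0.927), Smim24 (0.921) and Cst6 (0.917). Without high fat replicates 1 and 2 the values of these 4 were 0.900, 0.876, 0.841 and 0.869. These libraries share their groups and their cell makeup, and the correlations are a description.

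The single-cell samples allow the genes to be placed in cells. After removal of barcodes with few genes, few unique molecular identifiers (UMIs) or a high mitochondrial share, and of likely doublets, 1185 and 1229 cells remained for WT and KO in set 1, and 3156 and 3149 in set 2. The median mitochondrial share before filtering was 5.90% and 5.62% in set 1 and 40.9% and 37.9% in set 2. WT and KO shared 1 cell barcode in set 1 and 12 in set 2. Each set was clustered without the 10 genes and without the fat and lipoprotein lists. By fixed brush border markers such as Alpi, Sis and Lct, 5 clusters of set 1 and 4 of set 2 were called enterocyte-like, with 445 (WT) and 360 (KO) cells in set 1 and 457 (WT) and 744 (KO) cells in set 2. A set 2 cluster of 578 cells (cluster 13), led by Dmbt1, Rbp7 and Gsdmc4, stayed unnamed. It had 10 enterocyte markers at least 2-fold above the median of the clusters, but none among its leading genes.

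Levels are given as UMIs per 10000 UMIs of the cells named. Every member was higher in enterocyte-like cells than in any other named class in each of the 4 samples. The distance to the highest other class was widest for Apoa1 (8.62 to 86.7 times over the 4 samples), Apoa4 (9.99 to 35.4 times) and Apoc3 (10.1 to 30.1 times). It was 5.65 to 8.10 times for Fabp1, 6.41 to 9.58 times for Fabp2, 5.11 to 10.8 times for Apob and 2.62 to 4.13 times for Dgat1. Mttp (2.89 to 8.42 times), Mogat2 (3.29 to 10.3 times) and Cd36 (1.58 to 16.5 times) came closest to another class in WT of set 2. For Cd36 in set 2 that class was B lymphocyte or plasma cell-like, at 0.186 (WT) and 0.138 (KO). These cells held 269238 (WT) and 72260 (KO) UMIs in total, so few Cd36 UMIs lie behind the levels. The order of the 2 classes for Cd36 in set 2 is thus within counting error.

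The highest other class was most often tuft cell-like, but for Fabp2 it was goblet cell-like in all 4 samples. Fabp2 in goblet-like cells measured 18.8 (WT) and 20.1 (KO) in set 1 and 14.9 (WT) and 18.8 (KO) in set 2. The 95% interval of the highest of these was 19.7 to 20.5. Paneth-like cells of the same samples measured 2.34, 1.71, 1.44 and 1.83. With cells thinned to 1000 UMIs, 71.6% to 81.6% of goblet-like cells and 13.9% to 21.5% of Paneth-like cells held a Fabp2 UMI. Before thinning the lowest share of a sample was 98.9% and 92.4%. Paneth-like cells were the lowest named class in each sample and held more UMIs a cell than goblet-like cells (median 71949 against 17186.5 in KO of set 1). Over the named classes other than enterocyte-like cells, the median level was 9.96 (WT) and 5.47 (KO) in set 1. It was 4.45 (WT) and 10.3 (KO) in set 2. Goblet-like and Paneth-like cells differed by more than counting error. Free RNA gives UMIs to all cells, and its part in these levels was not tested.

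**Figure D3:**
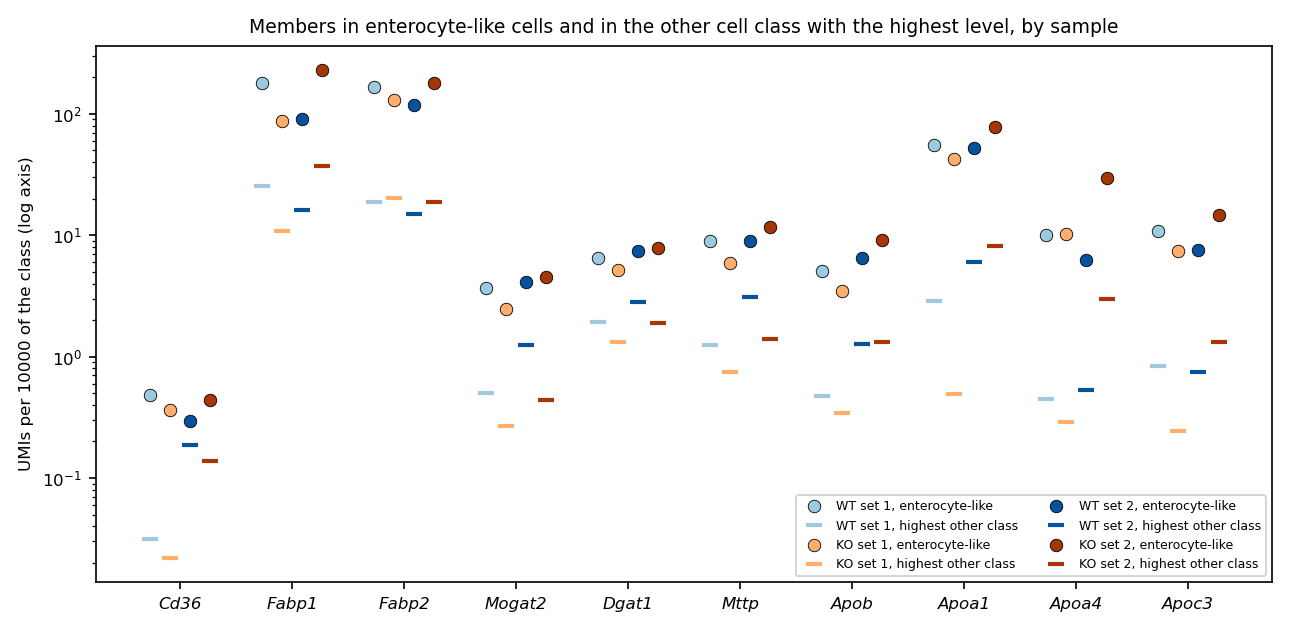
UMIs per 10000 (log axis) of the 10 genes in enterocyte-like cells (circles) and in the other named cell class with the highest level (bars) of each of the 4 samples. Circles lie above the bars of the same colour for all 10 genes, and closest for Cd36 in WT of set 2, where the bar rests on few UMIs.

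Knockout and wild-type enterocyte-like cells were compared first over the 4 samples, without the set in the fit. None of the 10 genes passed, as none of 10585 genes did (0%) in edgeR's quasi-likelihood test, with 102 genes (0.964%) and no member at an unadjusted p under 0.05 and 5 called by DESeq2. With 2 samples a genotype the member with the largest difference was Apoa4, at 10.0 (WT, set 1), 6.23 (WT, set 2), 10.3 (KO, set 1) and 29.7 (KO, set 2) UMIs per 10000. Both KO samples lay above both WT samples, by a wide margin in set 2 and a narrow one in set 1, as they did for 8.79% of all genes. The edgeR log2 difference was 1.30 ± 0.63 (SE, adjusted p = 1.00). The other 9 had log2 differences from -0.16 (Mogat2) to 0.27 (Apoc3).

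The sets went in opposite directions. In set 1, 9 of the 10 genes were lower in KO (42.8% of 9560 genes were), and in set 2 all 10 were higher (41.8% of 10340 genes were). Other choices of cells moved these counts: 2 of 10 were lower in KO of set 1 without doublet removal and 6 with a marker gate in place of clusters, and in set 2, 8 were higher with cells up to 50% mitochondrial UMIs or at Leiden resolution 0.5 and 9 with the marker gate, the exceptions being Dgat1 and Mogat2, or Dgat1 alone with the gate. Cells were clustered and named anew for each choice except the gate. Keeping the 12 barcodes dropped as doublets from each set 1 sample changed its enterocyte-like cells from 360 to 247 (KO) and from 445 to 500 (WT). The part of the doublets themselves in the moved counts was not tested. With 1 sample of each genotype in a set there is no test of these differences, and intervals cover counting error only. Summed over the 10 genes, they made up 4.45% (WT) and 2.94% (KO) of the UMIs of enterocyte-like cells in set 1, and 3.02% (WT) and 5.66% (KO) in set 2. Without doublet removal the order of set 1 turned, with 3.96% (WT) and 4.26% (KO), and with cells up to 50% mitochondrial UMIs WT of set 2 stood at 4.58% against 6.75% in KO.

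Among the binding proteins and the translocase, Fabp1 had the largest ratios. It measured 179.5 (WT) and 87.8 (KO) UMIs per 10000 in set 1 and 91.3 (WT) and 229.9 (KO) in set 2, so KO was at 0.489 of WT in set 1 and at 2.52 times WT in set 2. Over the other choices of cells the ratio was 0.483 to 0.804 in set 1, highest without doublet removal, and 2.00 to 2.55 in set 2. Fabp2 measured 165 and 129 in set 1 and 117 and 180.3 in set 2, and Cd36 0.478 and 0.362 in set 1 and 0.293 and 0.441 in set 2, in the same order. In all 3 genes WT was the higher in set 1 and KO in set 2.

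Enzymes and assembly genes differed less. Mogat2 measured 3.68 (WT) and 2.49 (KO) in set 1 and 4.13 (WT) and 4.50 (KO) in set 2. Dgat1 measured 6.49 and 5.12 in set 1 and 7.38 and 7.87 in set 2. Mttp measured 8.89 and 5.88 in set 1 and 8.90 and 11.8 in set 2, and Apob 5.11 and 3.50 in set 1 and 6.50 and 9.13 in set 2. All 4 were lower in KO of set 1, and in set 2 the difference was smallest for Dgat1, at a log2 ratio of 0.09.

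Of the apolipoproteins, Apoa1 measured 55.0 (WT) and 42.6 (KO) in set 1 and 52.2 (WT) and 77.4 (KO) in set 2, and Apoc3 10.8 and 7.40 in set 1 and 7.51 and 14.8 in set 2. Apoa4 was the gene that was not lower than WT in set 1 (log2 ratio 0.04) and the one with the highest ratio in set 2 (4.77, log2 2.25). A ratio of at least 2 upward in set 2 was seen for 1.77% of genes, with Apoa4 and Fabp1 among them, and one of at least 2 downward in set 1 for 1.26%, with Fabp1 among them, though not without doublet removal, with the marker gate or with cells up to 50% mitochondrial UMIs. The log2 ratio of Apoa4 ran from 0.02 to 0.78 in set 1 and from 1.85 to 2.26 in set 2 over 4 other choices of cells.

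**Figure D4:**
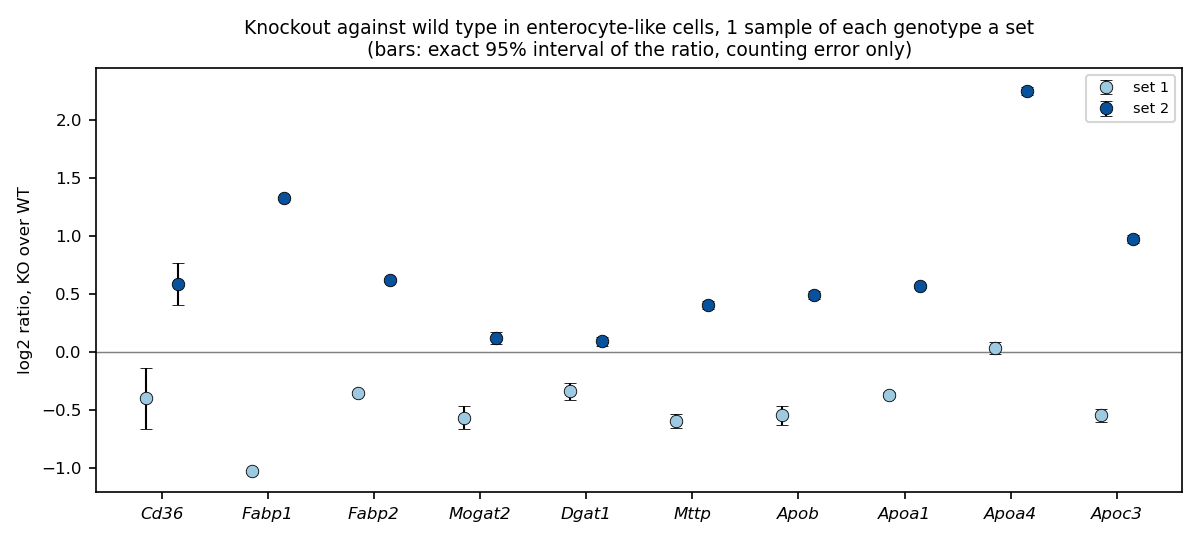
The log2 ratio of KO to WT UMIs per 10000 in enterocyte-like cells for set 1 (light) and set 2 (dark), with exact 95% intervals for counting error. Dark points lie above 0 for all 10 genes, light points below 0 for 9 of them, and Apoa4 has the highest ratio in each set.

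The enterocyte-like clusters differed in their content of these genes and in their share of the 2 genotypes. In set 1 the cluster led by Apoa1, Apoa4 and Leap2 (cluster 7) held 13.9% of the KO and 35.3% of the WT enterocyte-like cells. The cluster led by Gsdmc2, Lgals3 and Ces1f (cluster 4), where Apoa4 was lowest, held 37.2% of KO and 14.2% of WT. Cluster 4 had 7 of 20 enterocyte markers at least 2-fold above the median of the clusters, where the other enterocyte-like clusters had 17 to 20. Its Fabp2 level, 13.8 (KO) and 17.6 (WT), was below that of goblet-like cells of set 1 (20.1 and 18.8). The set 1 ratios over all enterocyte-like cells include this cluster. In set 2 the cluster led by Apoc3, Apoa4 and Apoa1 (cluster 15) held 35.6% of KO and 22.3% of WT, and a cluster led by Fabp6, Reg3b and Slc51a (cluster 12) held 22.3% of KO and 47.3% of WT. KO was thus the poorer in the Apoa4-rich cluster in set 1 and the richer in set 2, and the ratios were computed within each of the 9 clusters as a description with no test.

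Within clusters Apoa4 was higher in KO in 7 of 9. In cluster 7 of set 1 it measured 64.0 UMIs per 10000 in KO and 26.2 in WT (ratio 2.44, 95% interval 2.34 to 2.54), and in cluster 5, led by Sst, Apoa1 and Reg3a, 9.13 and 4.62 (ratio 1.98). In cluster 0, led by Fabp6, Apoa1 and Lct, it measured 10.2 and 3.75 (ratio 2.71). Clusters 6 (0.677 in KO and 1.13 in WT) and 4 (0.211 and 0.329) went the other way at low levels.

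In set 2 the ratio of Apoa4 was above 2 in all 4 clusters, as it was for 0.155% of genes. Cluster 15 measured 73.0 in KO and 21.9 in WT (ratio 3.33, 95% interval 3.24 to 3.42), and cluster 3, led by Reg3a, Fabp1 and Reg1, 19.4 and 5.47 (ratio 3.55). A cluster led by Fabp6, Reg3b and Plb1 (cluster 16) measured 7.40 and 1.22 (ratio 6.08), and cluster 12 measured 1.39 and 0.595 (ratio 2.34). T lymphocyte-like cells of set 2, which should lack the gene, measured 1.58 in KO and 0.15 in WT. Over the 9 other named classes of set 2 the level had a median of 0.50 in KO and ran up to 2.97, and a median of 0.051 in WT and ran up to 0.526. The level of cluster 12 in KO thus lay inside the range of classes other than enterocytes, and that of clusters 3, 15 and 16 above it.

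Shares of cells give the same order in set 2. At 1000 UMIs a cell, 62.1% of KO and 24.9% of WT enterocyte-like cells held an Apoa4 UMI in set 2, and 21.9% and 36.2% in set 1. Without thinning these shares were 94.1% and 77.5% in set 2 and 56.4% and 79.3% in set 1, at median depths of 17642.5 (KO) and 25784 (WT) UMIs in set 2 and 13904.5 (KO) and 15069 (WT) in set 1. Of the T lymphocyte-like cells of set 2, 14.7% of KO and 1.96% of WT cells held one after thinning.

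The other members followed Apoa4 in part. Apoc3 was higher in KO in 6 of 9 clusters, in all 4 of set 2 (ratios 1.40 to 2.18, and 10.3% of genes were higher in all 4) and, in set 1, in cluster 7 (1.22) and cluster 5 (1.34). Apoa1 was higher in 7 of 9, with ratios from 0.78 to 1.23. Fabp1 had ratios of 1.01 to 2.07 in the clusters of set 2. In set 1 it was lower in KO in 4 of 5 clusters (ratios 0.434 to 0.965) and higher in cluster 7, where it was most abundant, with 403 in KO and 341 in WT (ratio 1.18).

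The synthesis enzymes stood apart from these. Mogat2 was lower in KO in all 9 clusters, with ratios from 0.82 to 0.99, where 5.54% of genes were lower in all 5 clusters of set 1 and 13.3% in all 4 of set 2. Dgat1 had ratios between 0.94 and 1.02. Mttp ranged from 0.76 to 1.16, Apob from 0.56 to 1.17, Fabp2 from 0.67 to 1.47 and Cd36 from 0.32 to 1.46, each higher in KO in 4 or 5 of 9 clusters. The lowest Cd36 ratio, in cluster 16 of set 2, rests on 7 (KO) and 26 (WT) UMIs.

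**Figure D5:**
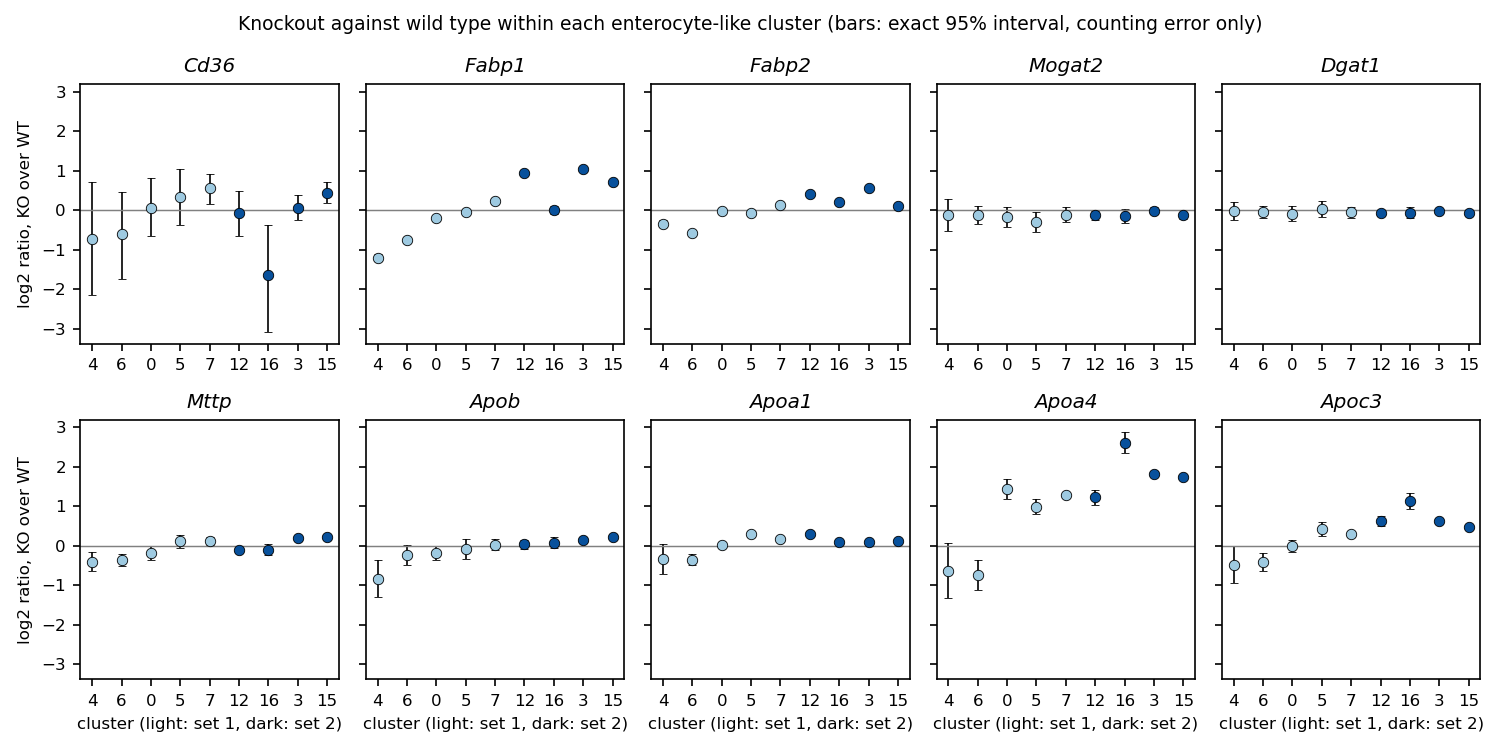
The log2 ratio of KO to WT UMIs per 10000 for each member within each enterocyte-like cluster (light, set 1; dark, set 2), with exact 95% intervals for counting error. Apoa4 lies above 0 in 7 of 9 clusters, Mogat2 and Dgat1 stay near 0, and Fabp1 lies lower in the clusters of set 1 than in most of set 2.

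Other contents of the enterocyte-like cells differed as well. Summed ileal bile acid genes measured 15.2 (KO) and 9.77 (WT) UMIs per 10000 in set 1 and 42.0 and 31.3 in set 2. Summed genes of the villus base measured 80.0 and 107 in set 1 and 250.1 and 405 in set 2. Summed enterocyte markers measured 61.7 (KO) and 86.8 (WT) in set 1 and 119 and 103 in set 2. This was the direction of all members in set 2 and of all but Apoa4 in set 1. Paneth markers measured 25.9 and 31.8 in set 1 and 12.6 and 4.58 in set 2. The part of these contents in the member differences was not tested. Over the pathway lists, 0 genes passed the edgeR threshold between the genotypes, and none was at an unadjusted p under 0.05.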

How the data were processed

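The mRNA table holds a signal, normalized counts per gene, as the authors deposited them, and no source used here gives how they were scaled. Per the labels' protocols, complementary DNA was made with a SMARTer Ultra Low Input kit and tagged with Nextera XT. The single-cell matrices hold whole UMI counts, deposited by the authors for each gene in each cell, and per the labels they were made on the 10x Chromium. The submitters' processing notes name Cell Ranger, STAR, Salmon, DESeq2 and mm10 without roles, and the set 2 matrix headers name software version 3.0.1. Total UMIs were 24533466 and 24760063 (KO and WT) in set 1 and 66022224 and 70409055 in set 2.

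Tests of normalized counts used log2(value + 1) in limma 3.58.1 under R 4.3.3, moderated by eBayes with a mean trend. This scale understates the change of low genes, and genes with a mean of at least 10 over the compared libraries were tested. A call is a two-sided Benjamini-Hochberg adjusted p under 0.05 over all genes tested, and no p was adjusted over the members alone. Entries with no gene name, 0.0338% to 0.0804% of a library, stayed out of the tests.

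A cell needed 500 or more genes, 1000 or more UMIs and a mitochondrial share under 25%. As doublets, the top 0.8% per 1000 barcodes by Scrublet score were dropped. Each set was clustered in scanpy 1.11.5 (2000 variable genes, 30 principal components, 15 neighbours, Leiden resolution 1), leaving out the members and lipid lists. A cluster of at least 30 cells took a class name with at least 3 markers 2-fold above the median of the clusters. At least 1 marker of the class also had to be among its 10 leading genes. UMI counts of enterocyte-like cells were summed per sample and tested with edgeR 4.0.16 (quasi-likelihood, TMM, filterByExpr), and DESeq2 1.42.0 was an alternative. Intervals are exact at 95% and cover counting error only. The scripts were tested on simulated data.

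All members are named in each comparison. Of the lists, the called genes of a comparison are named, or the 6 with the smallest adjusted p where more than 6 were called. The 5 most similar genes, of which 1 is not reported here, and the 3 leading genes of a cluster are named by rule. Members and lists were chosen with earlier results of these data known. The small RNA libraries were not analysed here.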

Additional observations from a re-analysis of the deposited data

Results flagged for a closer look

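Dixon's test at 95% was applied to the unlogged normalized counts of 40 sets of 4 libraries (10 genes in 4 groups). In 6 of them the highest library stood apart from the other 3 by more than the test allows. Chance alone gives about 1 in 20 for independent sets of normally distributed values. Unlogged counts can be skewed and the genes share their libraries, so 6 of 40 does not measure an excess. Apoa4 measured 2738 normalized counts in germ-free replicate 1, where the next library of the group measured 479. Fabp1 measured 2684 in the same library, against 354 in the next. In conventionalized replicate 1, Mttp measured 3643 (next 1052), Fabp1 2583 (next 572) and Mogat2 2393 (next 391). Cd36 measured 96.3 in chow replicate 3, where the next library measured 39.0. Germ-free and conventionalized replicates 1 thus hold 5 of the 6.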

How the results depend on the processing

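With 4 libraries a group, or 2 samples a genotype, spread between libraries limits these comparisons more than counting depth does. Under other settings for diet, the number of members passing was 1 without a filter on low values, 1 with library weights, 1 with the replicate block and 2 with the column numbers as blocks, and 5 in the 180s alone, against 0 as reported and 0 to 2 with 1 replicate left out at a time. The 5 in the fit of the 180s alone included Cd36 (adjusted p = 0.0446, limma) and not Mogat2, while those of the joint fit included Mogat2 and not Cd36. No member passed under any alternative of the other comparisons. Same-numbered libraries did not deviate together throughout (r from 0.04 to 0.22 for diet and -0.13 to 0.40 for microbiota), so the numbers were not taken to pair them. For the genotypes the same-set value was 0.68, but the reported edgeR test left the set out. With the set as a block 0 genes passed, and 306 were at an unadjusted p under 0.05 in edgeR against 102 as reported. The replicate block moved all calls from 135 to 271 for diet and from 17 to 165 for conventionalized against chow, and it ended the call of Apom (adjusted p = 0.0517).

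The 135 diet calls became 317 without the filter, 33 with all 4 groups in one fit, 1845 with library weights, 1535 with column number blocks, 12 without the 2 libraries of conflicting names, 208 in the 180s and 251 in the 240s. They became 2590 without chow replicate 2, 69 without chow replicate 3 and 0 without each of the others. The 453 microbiota calls became 1672 with all 4 groups in one fit and 945 with library weights. Without germ-free replicates 1, 2 and 3 in turn they became 1, 684 and 272, and without conventionalized replicates 1, 2 and 4 they became 146, 148 and 253. The 0 genotype calls became 5 in DESeq2 and 1 with a marker gate in place of clusters. The 17 calls for conventionalized against chow became 39 without the filter, 26 with all groups, 27 with library weights and 0 to 6 with 1 left out. The cause was not tested.

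Reversals concerned differences that had not passed. For diet they were Apoc3 (-0.0023 with median-of-ratios rescaling, -0.049 with quantile normalization), Apoa1 (-0.25, quantile) and, in the 240s alone, Apoa1 (-1.07), Apob (-0.091), Apoc3 (-1.15), Mogat2 (-0.98) and Cd36 (-1.38). For microbiota they were Mogat2 (0.065 with quantile normalization, 0.27 without both replicates 1) and, with library weights, Apoa4 (0.23), Fabp1 (0.45), Fabp2 (0.087) and Mogat2 (0.34). For conventionalized against chow they were Mogat2 (0.035) and Cd36 (0.33) with library weights. For the genotypes they were Apob (-0.034, replicate block), Apoa1 (-0.0036 under 50% mitochondrial UMIs, -0.0042 at resolution 0.5), Cd36 (-0.025 at resolution 0.5), Mttp (0.038 with the marker gate) and, without doublet removal, Mttp (0.24), Dgat1 (0.12) and Mogat2 (0.11). Without doublet removal 2 of 10 genes were lower in KO of set 1. With 1 replicate left out at a time, the signs of these differences varied over the ranges given: for diet Apoa1 (-0.23 to 0.42), Apoc3 (-0.34 to 0.31), Mogat2 (-0.15 to 0.86) and Cd36 (-0.13 to 0.80), for microbiota Fabp1 (-1.16 to 0.31), Mogat2 (-0.47 to 0.68) and Apoa4 (-1.52 to 0.064), for conventionalized against chow Mttp (-0.14 to 0.54), Mogat2 (-0.99 to 0.084) and Cd36 (-0.44 to 0.66), and for the genotypes, where the lone sample is assumed to vary like the others, Mttp (-0.64 to 0.43), Dgat1 (-0.48 to 0.21), Mogat2 (-0.70 to 0.23), Apoa1 (-0.38 to 0.55), Apob (-0.77 to 0.68), Apoc3 (-0.36 to 0.71), Fabp1 (-0.68 to 0.83), Fabp2 (-0.18 to 0.41) and Cd36 (-0.28 to 0.47).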
